A study of Homo sapiens with 70 samples.

Results

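The machinery that copies DNA in S phase was followed through drug treatment of 2 established human hepatocellular carcinoma lines, Hep3B and Huh7. The set comprised 48 genes chosen by name from textbook roles: the origin licensing and helicase factors, the polymerases, the sliding clamp and its loader, the factors that bind and join new strands, nucleotide supply, chromatin assembly and fork protection. The choice was made with earlier results of these data known. All 48 were found among the 20090 gene symbols of the authors' 6 edgeR tables, each read on the transcript the authors marked as representative. Cells had been treated for 24 h with DMSO, the vehicle, with 5 µM GW3965, a drug-like activator of the oxysterol-sensing liver X receptors (LXR), with 2 µM sorafenib, an inhibitor of RAF and receptor tyrosine kinases, or with 5 µM GW3965 and 2 µM sorafenib together, called both drugs here. Poly-A RNA was sequenced from 70 libraries. Each of the 4 Hep3B groups held 9. In Huh7 the groups labelled sorafenib and GW3965/Sorafenib held 9 each, and those labelled GW3965 and DMSO 8 each. The labels give no genotype or added allele for either line and do not name the culture behind each library. The p-values thus rest on the spread among libraries, which may be technical.

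Replication starts when the origin recognition complex, CDC6 and CDT1 load the ring-shaped MCM helicase onto DNA in G1, and geminin blocks any further loading once S phase begins. CDC45 and the GINS complex then turn the loaded ring into an active helicase, polymerase alpha with primase starts each strand, and polymerases epsilon and delta extend the strands on the PCNA clamp. Many of these genes are known targets of the E2F transcription factors, which are released when growth signals inactivate the retinoblastoma protein. The RNA level of its gene, RB1, differed widely between the lines and is given with the E2F list below.

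Each of the authors' deposited tables set 1 drug group against its line's DMSO group. It gave a mean log2 CPM (read counts scaled to a common library total), a log2 fold change, and a p-value with its false discovery rate (FDR). A gene is called here at an FDR under 0.05. Values of single libraries were not used here, so levels below are group means implied by the mean log2 CPM and the fold change, in CPM, with the DMSO level averaged over the 3 tables of a line. The DMSO level of the Hep3B GW3965 table lay below that of the Hep3B sorafenib table by a median of -0.08 on the log2 scale, so fold changes were taken only within a table. A Hep3B GW3965 level set beside the averaged DMSO level therefore looks lower than its fold change gives. The median offsets within Huh7 were smaller, up to 0.05. A standard error after the sign ± was derived from the authors' p-value. It was not let below the median error of genes at a like expression level. In bulk RNA, fewer cells in S phase and less RNA per cell cannot be told apart.

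The labels of the Huh7 single-drug groups went against drug marker genes. In the Huh7 group labelled GW3965, the ERK output genes DUSP6 (-1.70), SPRY4 (-1.67), ETV4 (-1.24) and EGR1 (-2.61) all fell in the authors' deposited table, and of 4 LXR targets only ABCG1 was called (0.75). In the Huh7 group labelled sorafenib, the LXR targets ABCG1 (3.82), SREBF1 (1.63), ABCA1 (1.30) and MYLIP (1.00) all rose in the authors' deposited table, and 0 of the 4 ERK output genes were called. In Hep3B, GW3965 raised all 4 LXR targets and also all 4 ERK output genes, and sorafenib lowered all 4 ERK output genes, in the authors' deposited tables. The Huh7 groups are therefore named by their labels throughout, and every direction drawn from them carries this doubt. All 11 hepatocyte-like markers, among them ALB and AFP, were present in both lines. Of 7 markers of immune, endothelial and fibroblast cells, PTPRC, CD3E, PECAM1 and VWF stayed under 1 CPM in every group. The other 3, CD68, COL1A1 and PDGFRB, carried most of the summed level of the 7. That sum was 21.5 to 23.0 CPM with DMSO and 13.4 to 25.2 with drugs in Hep3B, and 26.5 to 27.3 with DMSO and 28.5 to 32.0 with drugs in Huh7. With both drugs in Huh7, CD68 (0.80), COL1A1 (0.99) and VWF (1.16) rose while PDGFRB (-1.41) and PECAM1 (-1.76) fell, and PDGFRB fell with both drugs in Hep3B (-2.13), in the authors' deposited tables. Hepatocyte-like markers also fell with both drugs, 9 of 11 in Hep3B and 7 of 11 in Huh7 in the authors' deposited tables. Their summed level in Hep3B was 17662 to 18693 CPM with DMSO, 17421 with GW3965, 15261 with sorafenib and 11467 with both drugs. In Huh7 the sum was 23056 to 23781 CPM with DMSO, 22967 and 22554 in the groups labelled GW3965 and sorafenib, and 13771 with both drugs. The part of these marker changes in the results on replication genes was not tested.

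Promoters were searched for the letters of E2F sites because the results below turn on genes that are known as E2F targets. The promoters searched were taken from a RefSeq table (build GRCh38.p14) and covered 42 of the 48 genes and 27305 genes in all. MCM4, MCM5, GINS4, POLD3, RPA2 and RPA3 were not among the promoters searched. Their absence does not show that RefSeq lacks a promoter for them, and the shares below hold for the promoters searched only. An E2F site was read as TTTCGCGC, TTTGGCGC, TTTCCCGC or TTTGCCGC on either strand. Within the 300 bases from 250 before to 50 after the start, 21 of 42 replication genes (50%) held one, against 3.99% of 27305 genes. In the 250 bases before the start the shares were 35.7% (15 of 42) and 3.40%. The 27305 genes were not limited to expressed genes and were not matched to the 42 for base composition. The CCAAT box, CCAAT on either strand, stood before the start of 66.7% of the 42 replication genes and 37.0% of the 27305 genes. The letters TTTGAA of the CHR element of late cell cycle genes stood there in 4.76% and 16.1%. The tables' own builds are hg19 and GRCh37 per the submitters' processing notes, so the promoters serve for their letters only. Shown here are the 250 bases before the start, 5′ to 3′ on the gene's strand, of the 3 genes with a site there whose median log2 fold change over the 6 tables was lowest, and of the gene whose median was highest. Capitals mark the E2F letters.
UHRF1, chr19:4909251-4909500, plus strand: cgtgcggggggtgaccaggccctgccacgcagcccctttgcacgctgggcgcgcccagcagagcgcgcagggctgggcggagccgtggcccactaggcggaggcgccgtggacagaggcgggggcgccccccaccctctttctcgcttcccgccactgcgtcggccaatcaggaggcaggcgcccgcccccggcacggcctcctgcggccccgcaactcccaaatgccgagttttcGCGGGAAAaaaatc
PCNA, chr20:5126623-5126872, minus strand: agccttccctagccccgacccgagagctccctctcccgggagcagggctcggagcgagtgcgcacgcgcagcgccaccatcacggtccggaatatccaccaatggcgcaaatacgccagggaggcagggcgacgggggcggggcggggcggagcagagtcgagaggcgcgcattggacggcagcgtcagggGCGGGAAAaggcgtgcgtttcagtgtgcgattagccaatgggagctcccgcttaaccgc
POLA1, chrX:24693668-24693917, plus strand: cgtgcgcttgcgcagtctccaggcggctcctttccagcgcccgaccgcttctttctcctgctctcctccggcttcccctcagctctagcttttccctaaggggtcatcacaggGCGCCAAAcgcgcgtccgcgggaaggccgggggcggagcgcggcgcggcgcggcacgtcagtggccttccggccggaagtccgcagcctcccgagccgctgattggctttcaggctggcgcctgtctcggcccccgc
CDT1, chr16:88803539-88803788, plus strand: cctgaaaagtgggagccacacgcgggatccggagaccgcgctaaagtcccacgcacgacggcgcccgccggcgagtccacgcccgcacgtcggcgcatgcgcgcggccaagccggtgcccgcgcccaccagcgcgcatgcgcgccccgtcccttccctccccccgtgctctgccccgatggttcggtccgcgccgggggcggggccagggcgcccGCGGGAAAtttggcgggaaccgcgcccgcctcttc
The sites began 14, 59, 137 and 35 bases before the start. UHRF1, PCNA and CDT1 carried the same 8 letters, GCGGGAAA, and POLA1 carried GCGCCAAA. The medians of these 4 genes over the 6 tables were -1.04, -0.84, -0.82 and 0.04, so the same letters stood before genes with low and with high medians. RRM2, whose median was the lowest at -1.34, held none of the 4 words in its 300 bases. A match of letters is a description and not a binding site.

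Most of the replication genes fell with sorafenib in Hep3B and with both drugs in both lines. With sorafenib in Hep3B, 42 of the 48 fell, 1 rose and 5 were not called in the authors' deposited table, where 17.4% of all genes were called lower and 17.3% higher. Both drugs in Hep3B gave 40 lower, 4 higher and 4 not called in the authors' deposited table, against 23.6% and 26% of all genes. Both drugs in Huh7 gave 41 lower, 1 higher and 6 not called in the authors' deposited table, against 17.3% and 24.3%. The median log2 fold changes of the 48 were -0.82, -0.80 and -0.84 in these authors' deposited tables, beside -0.03, 0.01 and 0.07 over expressed genes (mean of 2 CPM or more), and 0.16 over all genes with both drugs in Huh7. Centring on the medians of expressed genes turned the direction of no called replication gene. A fall of 2-fold or more was listed for 13, 18 and 18 of the 48, beside 1.78%, 5.34% and 2.97% of all genes. All 48 were expressed, and over expressed genes the shares called lower were 27.9%, 35.4% and 26.1%.

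Fewer of these genes were called in the other 3 groups. In the Huh7 group labelled GW3965, whose ERK output genes fell, 24 of the 48 were lower and 0 higher in the authors' deposited table, against 11.3% and 9.13% of all genes, with a median of -0.35. GW3965 in Hep3B gave 12 lower and 0 higher in the authors' deposited table, against 2.28% and 4.51%, with a median of -0.10, and 22 of the 48 had an unadjusted p under 0.05, all of them lower, against 15.7% of all genes in either direction. These 2 counts rest on small changes: at an FDR under 0.01 the 24 became 12 and the 12 became 5, and with a change of at least 1.5-fold they became 6 and 0. In the Huh7 group labelled sorafenib, 0 of the 48 were called by the authors' edgeR test in the authors' deposited table, against 0.796% lower and 1.25% higher among all genes. There, 10 of the 48 had an unadjusted p under 0.05, 9 of them lower, against 9.09% of all genes in either direction, and the median was -0.08. In both lines 37 were lower with both drugs, against 11.5% of all genes.

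**Figure D1:**
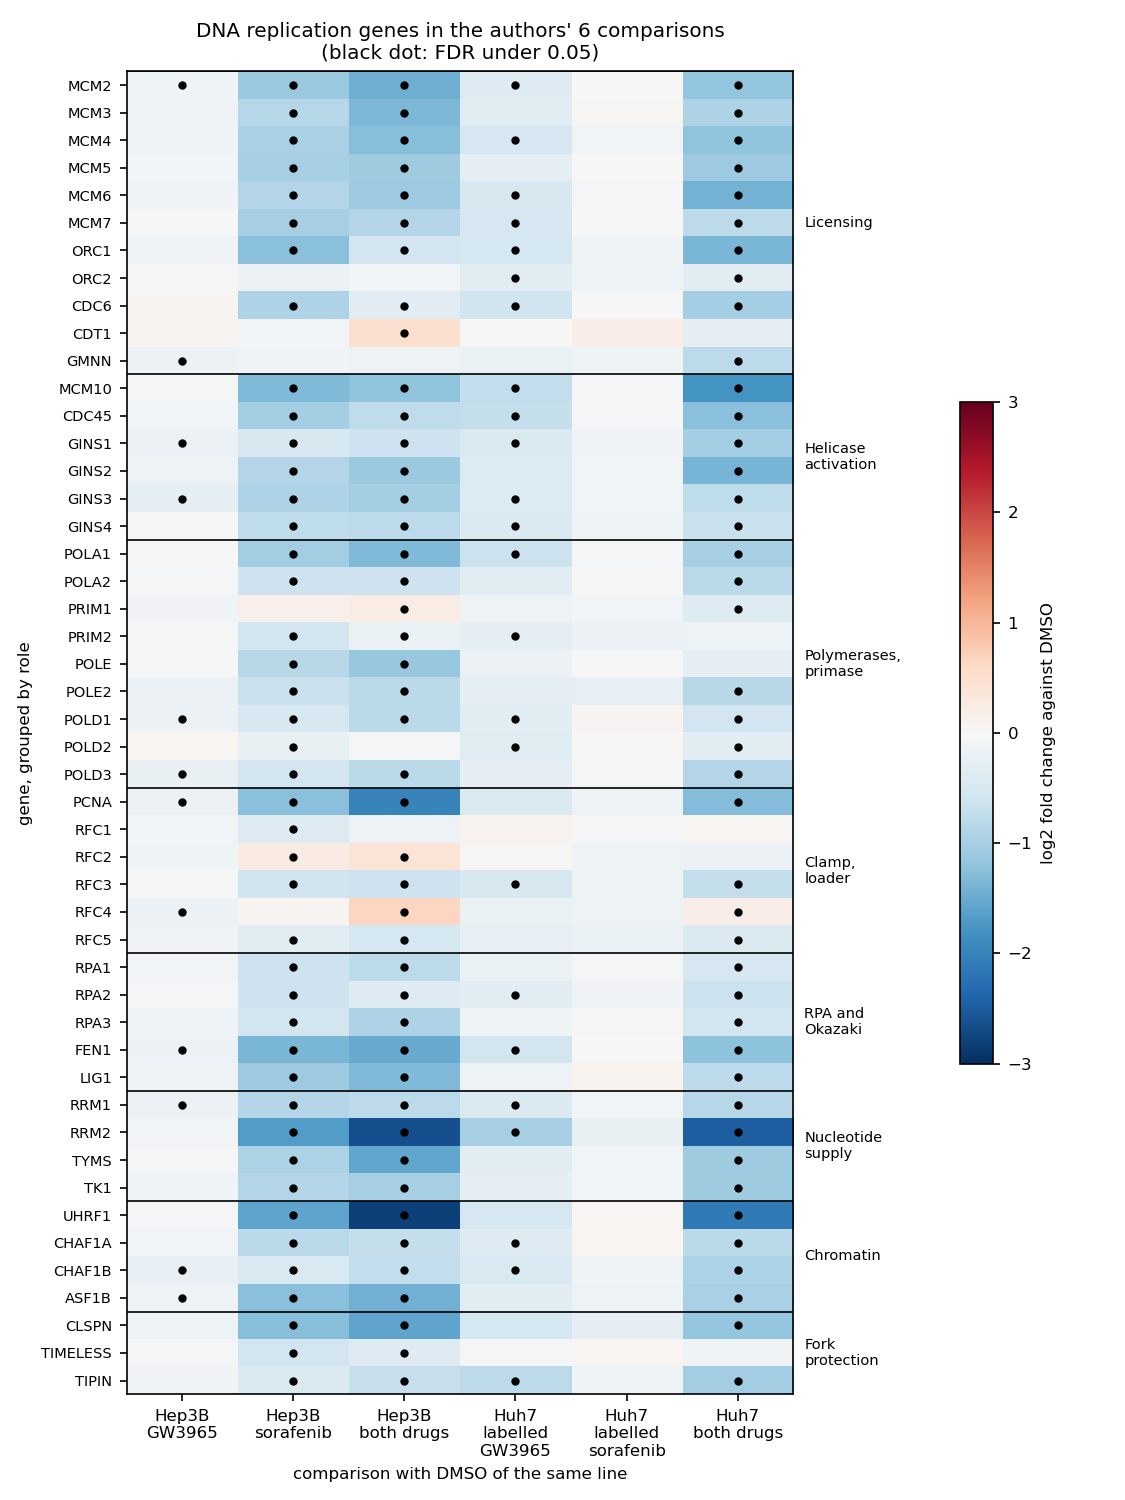
Log2 fold change against DMSO of the same line (colour scale from -3 to 3) for the 48 replication genes, in rows grouped by role, in the authors' 6 deposited tables, in columns; a black dot marks an FDR under 0.05. The Hep3B sorafenib column and the 2 columns of both drugs are blue in nearly every row, with 42, 40 and 41 genes called lower, and the Huh7 column labelled sorafenib has no dot.

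Before treatment the replication RNAs spanned a wide range of abundance. Per length, PCNA in Hep3B (124 CPM per kb with DMSO) and MCM7 in Huh7 (161) were the most abundant of the 45 genes with a known transcript length. POLD3 (2.90) was the least abundant in Hep3B and CHAF1B (3.29) in Huh7. ORC1, the loader subunit, was at 4.51 and 6.74 CPM per kb, far under the ring it loads. The lines were measured in separate tables, so these levels are set side by side without a test.

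All 6 subunits of the MCM2 to MCM7 helicase ring fell together with sorafenib in Hep3B and with both drugs in both lines. MCM2 in Hep3B stood at 251 CPM with DMSO, 222 with GW3965, 119 with sorafenib and 92.6 with both drugs. In Huh7 MCM2 stood at 209 CPM with DMSO, 162 in the group labelled GW3965, 211 in the group labelled sorafenib and 90.1 with both drugs. The lowest level in each line was with both drugs, and the Huh7 group labelled sorafenib lay with DMSO. In the authors' deposited table for sorafenib in Hep3B, the 6 subunits lay between -0.85 (MCM3) and -1.10 (MCM2). Both drugs spread them further, from -0.89 (MCM7, FDR = 1.74e-38) to -1.47 (MCM2, FDR = 2.46e-93) in the authors' deposited table for Hep3B. MCM7 was also the least changed in the authors' deposited table for both drugs in Huh7, at -0.78, where MCM6 was the most changed at -1.42. In the Huh7 group labelled GW3965, MCM2, MCM4, MCM6 and MCM7 were called lower in the authors' deposited table, and MCM3 (-0.34, FDR = 0.109) and MCM5 (-0.30, FDR = 0.0868) were not. Levels per length under DMSO differed between the 6 genes: in Hep3B MCM7 stood at 86.4 and MCM6 at 38.3 CPM per kb of transcript, and in Huh7 MCM7 stood at 161 and MCM5 at 27.0.

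The loaders of that ring did not move as one. ORC1, the largest subunit of the origin recognition complex, stood in Hep3B at 14.2 CPM with DMSO, 12.7 with GW3965, 6.13 with sorafenib and 9.64 with both drugs. CDC6, the ATPase that joins ORC to load MCM, stood at 66.0 CPM with DMSO, 67.1 with GW3965, 35.5 with sorafenib and 53.5 with both drugs. Both were lowest with sorafenib alone and higher again with both drugs. In Huh7 ORC1 stood at 21.3 CPM with DMSO, 14.8 in the group labelled GW3965, 19.9 in the group labelled sorafenib and 8.14 with both drugs, with its lowest level under both drugs. ORC2, a core ORC subunit that is present through the cell cycle, was called only in Huh7, at -0.31 in the group labelled GW3965 and -0.35 with both drugs in the authors' deposited tables. The marked ORC2 transcript is a non-coding variant, and the other ORC2 transcript in the tables gave fold changes within 0.3 of it on the log2 scale.

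CDT1, which brings the MCM ring to the origin, stood outside the fall in Hep3B, as did ORC2 and GMNN, and was the 1 licensing gene called higher. In Hep3B it stood at 38.1 CPM with DMSO, 38.6 with GW3965, 36.9 with sorafenib and 54.4 with both drugs. Only the group with both drugs was high, at 0.49 ± 0.10 in the authors' deposited table (FDR = 4.15e-06). In Huh7 it stood at 66.1 CPM with DMSO, 67.6 in the group labelled GW3965, 75.5 in the group labelled sorafenib and 53.7 with both drugs, and no Huh7 group was called, the nearest being both drugs at -0.27 (FDR = 0.0544) in the authors' deposited table. GMNN encodes geminin, the inhibitor of CDT1. It stood in Hep3B at 72.8 CPM with DMSO, 61.9 with GW3965, 67.4 with sorafenib and 66.5 with both drugs, of which only GW3965 was called in the authors' deposited table (-0.18, FDR = 0.00924). With both drugs in Huh7 GMNN fell by 0.79 (log2) in the authors' deposited table (FDR = 1.31e-23).

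**Figure D2:**
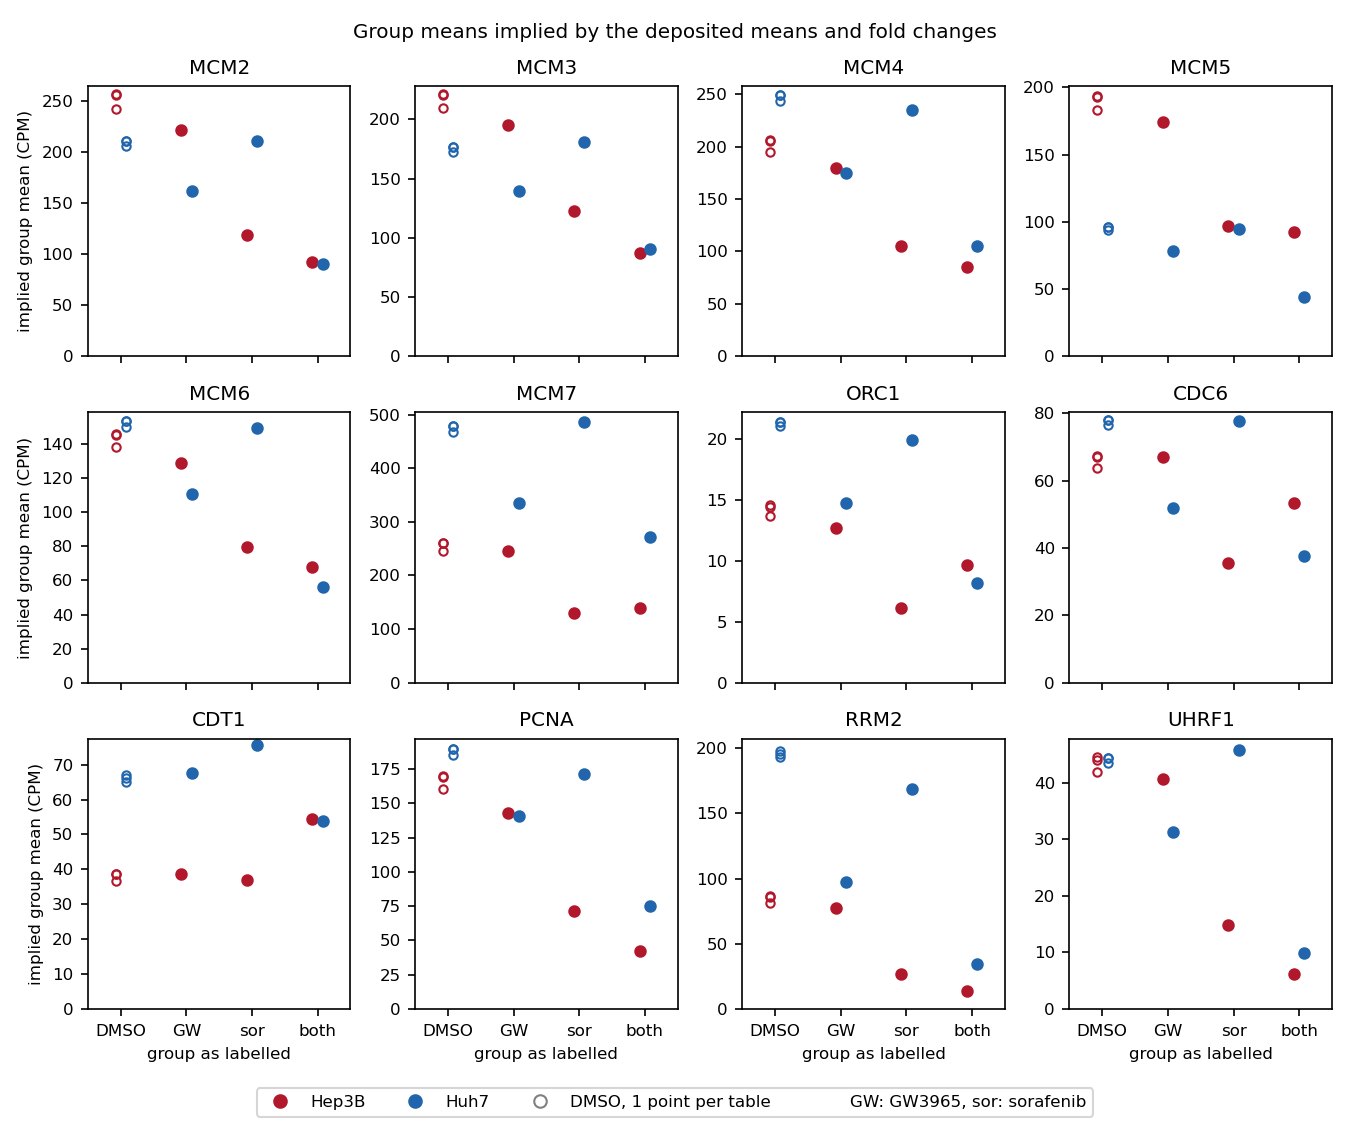
Implied group means in CPM (vertical axes start at 0) of 12 replication genes in Hep3B (red) and Huh7 (blue), by group as labelled; open circles give the DMSO level of each of the 3 tables of a line and filled circles the drug groups. MCM2 to MCM7, PCNA, RRM2 and UHRF1 are low with both drugs in both lines, while Hep3B ORC1 and CDC6 are lowest with sorafenib and CDT1 is high with both drugs.

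The factors that start up the loaded helicase all fell with sorafenib in Hep3B and with both drugs in both lines, 6 of 6 each time in the authors' deposited tables. MCM10, which takes part in origin firing, stood in Huh7 at 45.1 CPM with DMSO, 27.1 in the group labelled GW3965, 43.8 in the group labelled sorafenib and 12.9 with both drugs. Its fall with both drugs there, -1.79 in the authors' deposited table (FDR = 1.29e-112), was the third lowest of the 48, and in Hep3B the values were -1.32 with sorafenib and -1.22 with both drugs. CDC45, which rides with the MCM ring at the fork, was at -1.02 with sorafenib and -0.75 with both drugs in Hep3B, and at -1.26 with both drugs in Huh7, in the authors' deposited tables. The 4 GINS subunits ranged from -0.63 (GINS1) to -1.12 (GINS2) with both drugs in Hep3B in the authors' deposited table. In Huh7 with both drugs they ranged from -0.67 (GINS4) to -1.39 (GINS2) in the authors' deposited table. GINS3 had the lowest value of all 48 in the authors' deposited table for GW3965 in Hep3B (-0.29 ± 0.08, FDR = 0.00245).

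Among the polymerases the catalytic subunit of polymerase alpha had the lowest value with sorafenib in Hep3B, in the Huh7 group labelled GW3965 and with both drugs in each line. POLA1 stood in Hep3B at 28.4 CPM with DMSO, 27.0 with GW3965, 14.2 with sorafenib and 11.4 with both drugs, and in Huh7 at 35.3 CPM with DMSO, 22.7 in the group labelled GW3965, 34.1 in the group labelled sorafenib and 17.5 with both drugs. Its second subunit POLA2 fell by 0.63 with sorafenib and 0.61 with both drugs in Hep3B (log2) in the authors' deposited tables. The primase subunits, which lay down the RNA primer, did not follow POLA1 in every comparison. PRIM1, the catalytic subunit, was at 0.14 with sorafenib in Hep3B (not called, FDR = 0.213) and rose with both drugs (0.22 ± 0.09, FDR = 0.0160), while it fell with both drugs in Huh7 (-0.38, FDR = 0.00426), in the authors' deposited tables. PRIM2, the large subunit, fell in Hep3B with sorafenib (-0.54) and with both drugs (-0.21), but was not called with both drugs in Huh7 (-0.16, FDR = 0.129), in the authors' deposited tables.

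POLE, the catalytic subunit of the leading-strand polymerase epsilon, fell in Hep3B and was not called in any Huh7 group. Its Hep3B levels were 66.0 CPM with DMSO, 63.2 with GW3965, 37.9 with sorafenib and 30.3 with both drugs, and its Huh7 levels were 48.9 CPM with DMSO, 43.4 in the group labelled GW3965, 49.0 in the group labelled sorafenib and 40.1 with both drugs. The second subunit POLE2 did fall with both drugs in Huh7, at -0.83 beside -0.26 for POLE (FDR = 0.110) in the authors' deposited table. Of the subunits of polymerase delta, which makes most of the lagging strand, POLD1 (-0.81) and POLD3 (-0.80) fell with both drugs in Hep3B in the authors' deposited table, and POLD2 stood at -0.04 (FDR = 0.802). All 3 fell with both drugs in Huh7 in the authors' deposited table, POLD2 the least at -0.31.

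The clamp fell, while the subunits of its loader moved in different directions. PCNA, the ring that holds polymerases on DNA, stood in Hep3B at 166 CPM with DMSO, 143 with GW3965, 71.4 with sorafenib and 42.5 with both drugs, and both drugs left 25.1% of the DMSO level of their own table. In Huh7 it stood at 188 CPM with DMSO, 141 in the group labelled GW3965, 171 in the group labelled sorafenib and 75.5 with both drugs. The 5 subunits of the RFC complex, which opens the PCNA ring and loads it, did not share a direction. RFC3 fell by 0.62 and RFC5 by 0.53 (log2) with both drugs in Hep3B in the authors' deposited table, while RFC4 (0.64 ± 0.10, FDR = 1.17e-10) and RFC2 (0.41 ± 0.09, FDR = 1.21e-05) rose. RFC4 in Hep3B stood at 43.7 CPM with DMSO, 37.0 with GW3965, 47.1 with sorafenib and 69.5 with both drugs, and in Huh7 at 40.5 CPM with DMSO, 35.6 in the group labelled GW3965, 36.5 in the group labelled sorafenib and 45.9 with both drugs. It was the 1 replication gene called higher with both drugs in Huh7 in the authors' deposited table (0.21 ± 0.09, FDR = 0.0318). RFC2 was the 1 gene called higher with sorafenib in Hep3B in the authors' deposited table (0.25 ± 0.10, FDR = 0.0113). RFC1, the largest subunit, was called only with sorafenib in Hep3B in the authors' deposited table (-0.39, FDR = 7.12e-05).

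The genes whose products coat single strands and finish Okazaki fragments fell together, 5 of 5 with sorafenib in Hep3B and with both drugs in each line in the authors' deposited tables. FEN1, the flap nuclease that trims Okazaki fragments, stood in Hep3B at 120.3 CPM with DMSO, 102 with GW3965, 47.7 with sorafenib and 42.9 with both drugs, and in Huh7 at 152 CPM with DMSO, 105 in the group labelled GW3965, 154 in the group labelled sorafenib and 63.9 with both drugs. LIG1, the ligase that seals them, was at -1.09 with sorafenib and -1.32 with both drugs in Hep3B and at -0.79 with both drugs in Huh7, in the authors' deposited tables. The 3 subunits of replication protein A, which coats single strands, ranged from -0.39 (RPA2) to -0.93 (RPA3) with both drugs in Hep3B in the authors' deposited table. In Huh7 with both drugs they lay between -0.50 (RPA1) and -0.65 (RPA2) in the authors' deposited table.

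Nucleotide supply held the gene with the lowest median of all 48. RRM2, the S phase subunit of ribonucleotide reductase, which makes deoxyribonucleotides, stood in Hep3B at 84.5 CPM with DMSO, 77.1 with GW3965, 26.9 with sorafenib and 13.8 with both drugs. In Huh7 it stood at 195 CPM with DMSO, 97.6 in the group labelled GW3965, 169 in the group labelled sorafenib and 34.7 with both drugs. Sorafenib left 31.2% and both drugs 16.1% of the DMSO level of the same table in Hep3B, and both drugs left 18.0% in Huh7. In the authors' deposited table the fold change was -1.68 ± 0.11 (FDR = 4.27e-49) with sorafenib in Hep3B and the lowest of the 48. RRM2 was also lowest in the authors' deposited table for both drugs in Huh7 (-2.48 ± 0.08, FDR = 4.31e-259) and for the Huh7 group labelled GW3965 (FDR = 0.00121), where it was the 1 gene to fall by 2-fold. In the Huh7 group labelled sorafenib it was at -0.23 with an FDR of 0.0542 in the authors' deposited table. RRM1, the large subunit of the same enzyme, fell by 0.87 with sorafenib and 0.79 with both drugs in Hep3B and by 0.85 with both drugs in Huh7 (log2) in the authors' deposited tables. TYMS, which makes thymidylate, fell by 0.96 with sorafenib and 1.57 with both drugs in Hep3B (log2) in the authors' deposited tables. TK1, the S phase thymidine kinase, gave -0.88 and -0.99 in the same 2 authors' deposited tables, and both genes gave -1.07 with both drugs in Huh7.

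UHRF1 showed the largest fall with both drugs in Hep3B. The protein reads hemimethylated DNA behind the fork and brings in the methyltransferase DNMT1. UHRF1 stood in Hep3B at 43.5 CPM with DMSO, 40.7 with GW3965, 14.9 with sorafenib and 6.28 with both drugs, a fold change with both drugs of -2.81 ± 0.12 in the authors' deposited table (FDR = 1.00e-125). In Huh7 it stood at 44.1 CPM with DMSO, 31.3 in the group labelled GW3965, 45.8 in the group labelled sorafenib and 9.99 with both drugs. The group with both drugs was far below the others in both lines, and in Huh7 neither single-drug group was called, the one labelled GW3965 standing at -0.50 (FDR = 0.0842) in the authors' deposited table. ASF1B, a histone chaperone of dividing cells, fell by 1.26 with sorafenib and 1.45 with both drugs in Hep3B and by 0.96 with both drugs in Huh7 (log2) in the authors' deposited tables. The subunits of chromatin assembly factor 1, which places histones on new DNA, fell by 0.72 (CHAF1A) and 0.74 (CHAF1B) with both drugs in Hep3B (log2) in the authors' deposited table.

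Of the 3 fork protection genes, CLSPN had the lowest value with both drugs in each line. Claspin, its product, links stalled forks to the checkpoint kinase CHK1. CLSPN stood in Hep3B at 48.7 CPM with DMSO, 42.2 with GW3965, 20.7 with sorafenib and 16.5 with both drugs, and in Huh7 at 50.2 CPM with DMSO, 34.8 in the group labelled GW3965, 42.4 in the group labelled sorafenib and 22.0 with both drugs. It was the lowest of the 48 in the authors' deposited table for the Huh7 group labelled sorafenib, at -0.26 ± 0.09, where no gene of the set was called (FDR = 0.0879). TIMELESS and TIPIN form one complex that travels with the fork. In Huh7 with both drugs TIPIN fell by 1.04 (log2) in the authors' deposited table, while TIMELESS stood at -0.09 (FDR = 0.402). In Hep3B with both drugs TIPIN was at -0.70 and TIMELESS at -0.38, both called, in the authors' deposited table.

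The genes outside the common fall can be counted out. With sorafenib in Hep3B, ORC2, CDT1, RFC4, PRIM1 and GMNN were not called in the authors' deposited table, and the highest 2 values were RFC2 (0.25) and PRIM1 (0.14). With both drugs in Hep3B, ORC2, RFC1, POLD2 and GMNN were not called and CDT1, RFC2, RFC4 and PRIM1 rose in the authors' deposited table. In Huh7, 6 genes were not called with both drugs: CDT1, RFC1, RFC2, PRIM2, POLE and TIMELESS. In the small Hep3B response to GW3965, FEN1 (-0.18), RRM1 (-0.18), PCNA (-0.17) and MCM2 (-0.13) were among the 12 called lower in the authors' deposited table. The lowest 2 there were GINS3 and CHAF1B (-0.24 ± 0.06, FDR = 9.55e-05), and the highest 2, CDC6 (0.08, FDR = 0.568) and CDT1 (0.07, FDR = 0.625), were not called.

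Adding GW3965 to sorafenib in Hep3B deepened the fall of some genes and lifted others. The fold changes of 2 tables that share the DMSO libraries were subtracted and tested approximately with the derived errors, with Benjamini-Hochberg adjustment over all genes at a mean of at least 2 CPM. For both drugs minus sorafenib, 7 of the 48 were lower and 4 higher, against 14.5% and 16.6% of the 11635 genes tested. The number of lower genes is near that share and the number of higher genes is below it. The difference was -1.23 ± 0.19 for UHRF1 (adjusted p = 1.74e-08 by the approximate test), -0.95 ± 0.16 for RRM2 (adjusted p = 7.42e-08) and -0.74 ± 0.16 for PCNA (adjusted p = 3.41e-05). TYMS (-0.61), MCM3 (-0.49), MCM2 (-0.36) and POLD1 (-0.34) were also lower. On the other side, ORC1 was higher with both drugs by 0.67 ± 0.17 (adjusted p = 6.51e-04), CDC6 by 0.60 ± 0.13 (adjusted p = 9.36e-05), RFC4 by 0.56 ± 0.14 (adjusted p = 6.16e-04) and CDT1 by 0.56 ± 0.14 (adjusted p = 8.66e-04). Licensing genes stood on both sides, MCM2 and MCM3 among the 7 and ORC1, CDC6 and CDT1 among the 4. For the other 37 no difference was called. When the 2 fold changes were assumed to share the error of the DMSO libraries, 15 were lower and 7 higher, against 22.9% and 27.6% of genes tested. MCM7, for one, differed by 0.10 with a 95% interval of -0.16 to 0.36. Against GW3965 alone, both drugs were lower for 39 and higher for 4 of the 48, against 33.2% and 30.7% of genes tested.

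In Huh7 both drugs were lower than the group labelled GW3965 for 25 of the 48 and higher for 1, against 9.61% and 20.4% of the genes tested. UHRF1 (-1.62 ± 0.25, adjusted p = 6.31e-09 by the approximate test), RRM2 (-1.47 ± 0.27, adjusted p = 1.53e-06) and MCM10 (-1.05 ± 0.23, adjusted p = 6.19e-05) were the lowest. ORC1 was lower there too (-0.84 ± 0.17, adjusted p = 1.80e-05), and CDC6 was not called (-0.44, 95% interval -0.90 to 0.03). RFC4 was the 1 gene higher (0.41 ± 0.13, adjusted p = 0.00877). Over all genes tested the median of this difference was 0.11, and after it was subtracted 32 genes were lower and RFC4 was no longer called. Against the group labelled sorafenib, both drugs were lower for 39 and higher for 1, against 18% and 29.1%. The label doubt on the Huh7 single-drug groups applies to each of these counts.

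**Figure D3:**
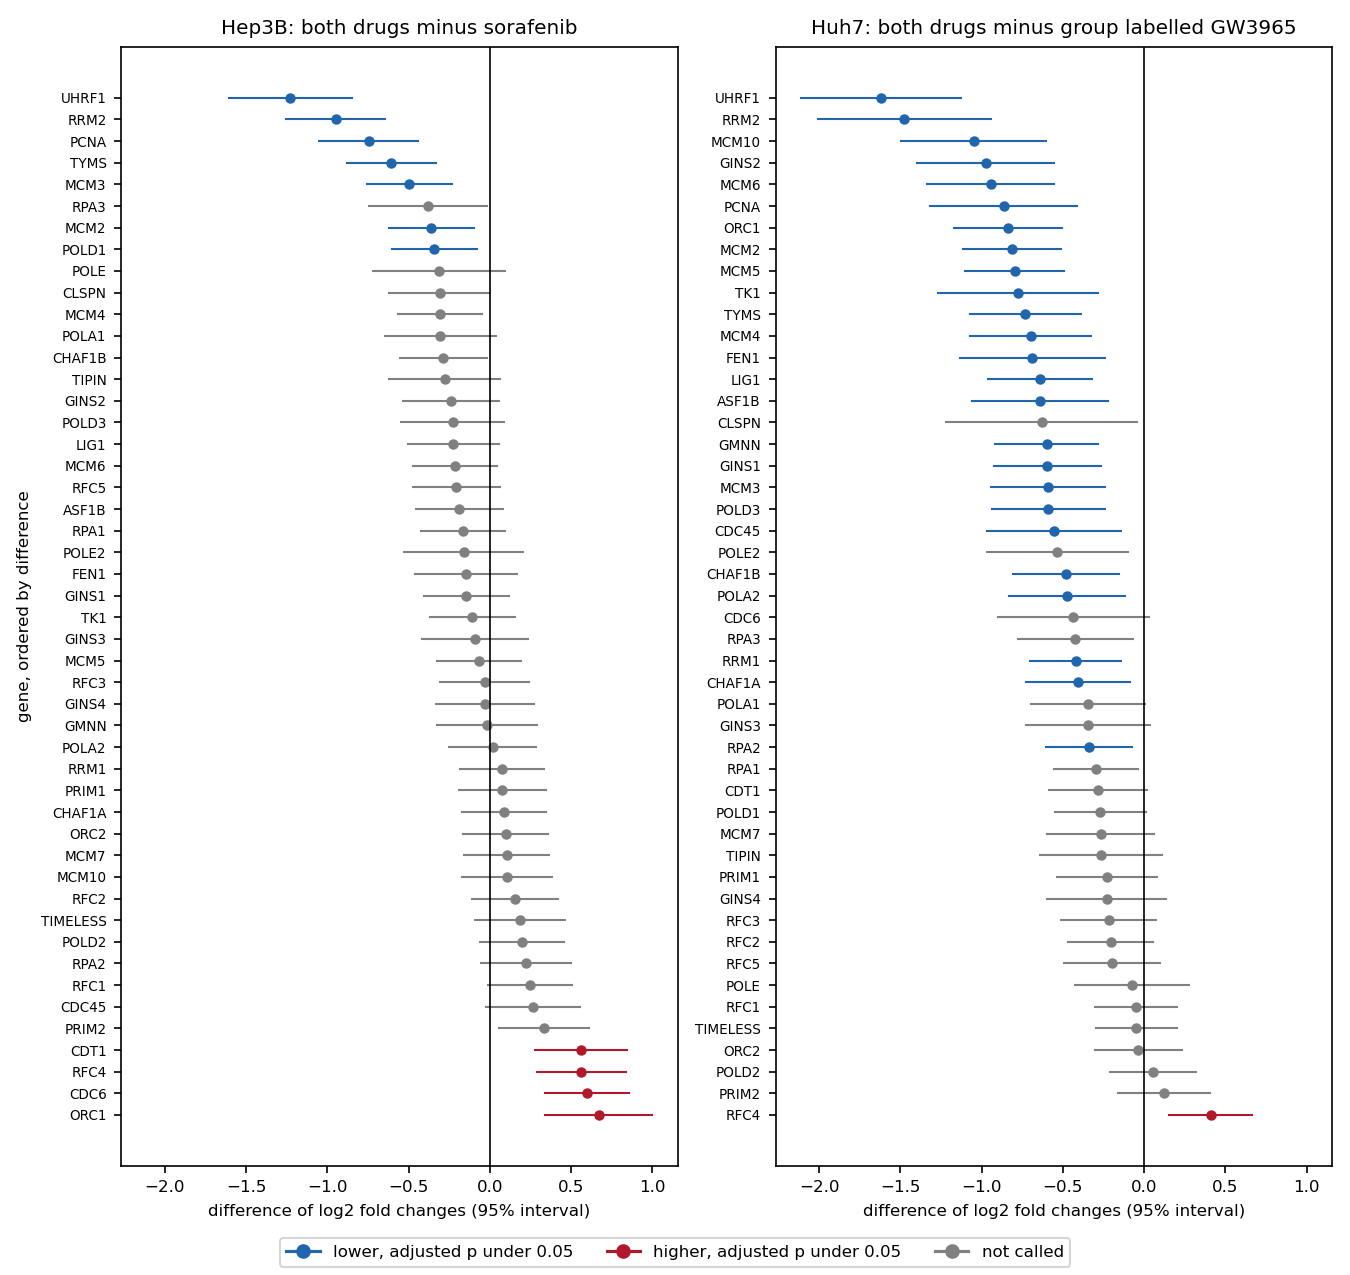
Difference of log2 fold changes with its 95% interval (horizontal axis) for each of the 48 genes (rows, ordered by the difference), both drugs minus sorafenib in Hep3B (left) and both drugs minus the group labelled GW3965 in Huh7 (right); blue marks lower, red higher and grey not called at an adjusted p under 0.05. UHRF1 and RRM2 lead the low end in both panels, and ORC1, CDC6, RFC4 and CDT1 form the high end in Hep3B.

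Both drugs together were also compared with the sum of the 2 single-drug fold changes of a line. In Hep3B 5 of the 48 lay below the sum and 4 above it, against 11.4% and 10.8% of the genes tested. Both numbers are near or under the share of any genes. The median departure was 0.02 over the 48 and 0.02 over all genes tested. The 5 were UHRF1 (-1.18 ± 0.20, adjusted p = 6.84e-07 by the approximate test), RRM2 (-0.87 ± 0.17, adjusted p = 1.11e-05), PCNA (-0.58), TYMS (-0.55) and MCM3 (-0.39). The 4 were ORC1 (0.78 ± 0.18, adjusted p = 4.88e-04), RFC4 (0.75 ± 0.15, adjusted p = 4.16e-05), CDC6 (0.52) and CDT1 (0.49). In Huh7 18 lay below the sum and 1 above it, against 5.9% and 15.3%, and the sum does not depend on which single-drug group carries which label. The median of this departure over all genes tested was 0.14, and after it was subtracted 27 lay below and 1 above. All but MCM7 of the 6 MCM ring genes were among the 18 before that subtraction, from -0.90 (MCM6) to -0.61 (MCM4), with UHRF1 lowest at -1.67 ± 0.26 (adjusted p = 3.59e-08). RFC4 was the 1 gene above the sum (0.57 ± 0.15, adjusted p = 0.00226), as it was in Hep3B. CDT1, above the sum in Hep3B, lay below it in Huh7 (-0.47 ± 0.17, adjusted p = 0.0315).

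With both drugs the lines differed for 22 of the 48 genes. In all, 11 of the 48 fell further in Hep3B than in Huh7 and 11 less far or rose, against 26.3% and 17.7% of the genes tested. The 22 are thus near the share of any genes. After the median difference over all genes tested was subtracted, the split was 7 and 16. Of the 11 licensing genes, 5 were higher in Hep3B: ORC1 by 0.79 ± 0.16 (adjusted p = 9.77e-06 by the approximate test), CDT1 by 0.76 ± 0.16 (adjusted p = 1.10e-05), CDC6 by 0.70 ± 0.15 (adjusted p = 2.91e-05), GMNN by 0.64 ± 0.15 (adjusted p = 8.57e-05) and MCM6 by 0.32 ± 0.12 (adjusted p = 0.0162). Another 2 licensing genes, MCM3 (-0.41) and MCM2 (-0.27), were lower in Hep3B. Higher in Hep3B were also PRIM1 (0.59), RFC2 (0.57), MCM10 (0.57), CDC45 (0.51), RFC4 (0.44) and GINS1 (0.40). POLE showed the largest difference the other way, at -0.88 ± 0.18 (adjusted p = 1.32e-05), followed by PCNA at -0.70 ± 0.13 (adjusted p = 1.49e-06) and UHRF1 at -0.68 ± 0.17 (adjusted p = 2.81e-04). RRM2, which fell far in both lines, differed by -0.16 with a 95% interval of -0.43 to 0.11.

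Between groups of like label the lines differed in another way. For the groups labelled sorafenib, 38 of the 48 were lower in Hep3B than in Huh7 and 1 was higher (RFC2, 0.40), against 18.2% and 17.7% of the genes tested. For the groups labelled GW3965, 0 were lower and 11 higher in Hep3B, against 10.1% and 14.7%, with RRM2 (0.92 ± 0.26, adjusted p = 0.00397 by the approximate test) and MCM10 (0.71 ± 0.22, adjusted p = 0.00741) first. Both sets of numbers rest on the Huh7 labels, which go against the drug marker genes above, so a difference between lines and a difference between drugs cannot be told apart here.

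**Figure D4:**
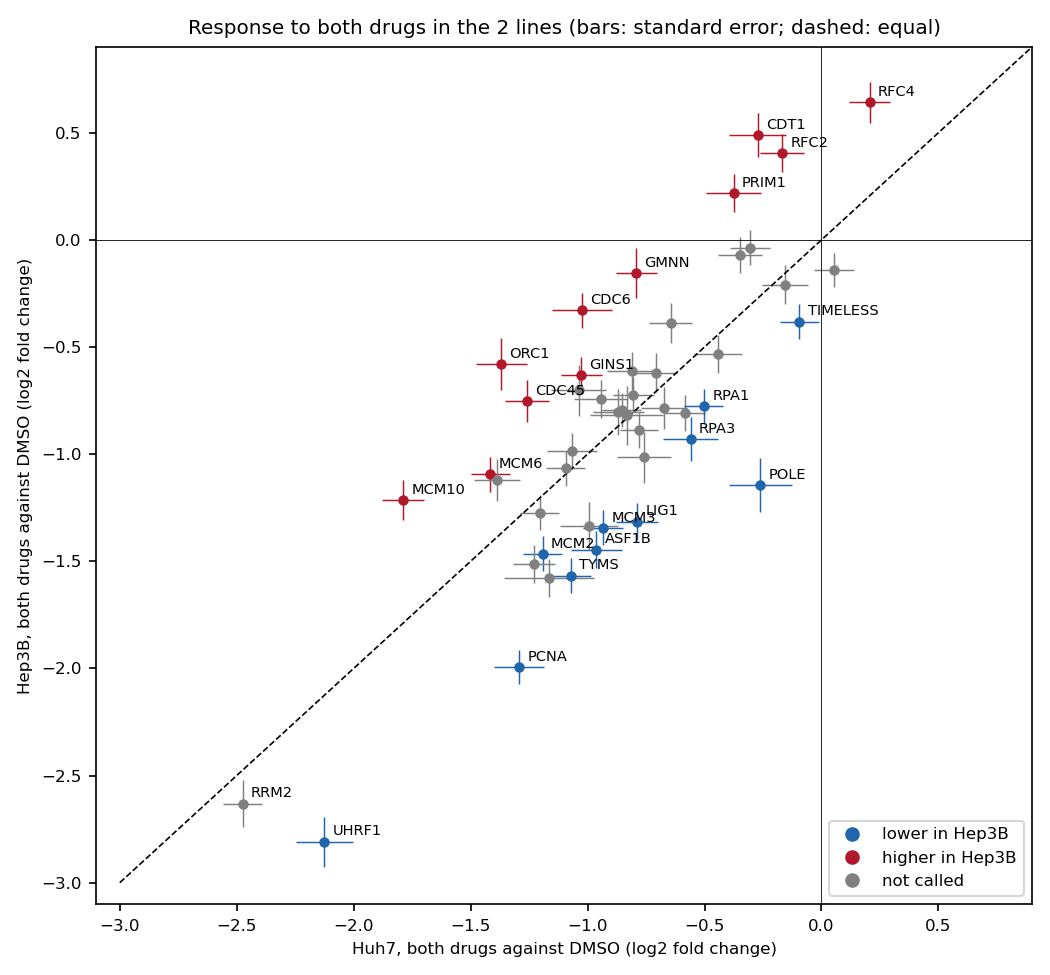
Log2 fold change with both drugs against DMSO in Huh7 (horizontal) and Hep3B (vertical) for the 48 genes. Bars give the standard error derived from the authors' p-value, with its lower limit. The dashed line marks equal response, and colours mark a difference between the lines at an adjusted p under 0.05. RRM2 and UHRF1 lie lowest in both lines, and ORC1, CDC6, CDT1, GMNN and MCM6 lie above the dashed line.

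Genes around the replication machinery were counted from 4 further lists, to be read against the shares called lower and higher. Over all genes these were 17.4% and 17.3% with sorafenib in Hep3B and 23.6% and 26% with both drugs there. With both drugs in Huh7 they were 17.3% and 24.3%. GW3965 in Hep3B gave 2.28% and 4.51%. The Huh7 group labelled GW3965 gave 11.3% and 9.13%, and the one labelled sorafenib 0.796% and 1.25%. Nearly all listed genes were expressed. Over expressed genes the shares were 27.9% and 23.6%, 35.4% and 36.7%, and 26.1% and 35.5% for the first 3 groups. For the other 3 they were 3.82% and 7.40%, 17.8% and 13.6%, and 1.32% and 2.00%. Of 39 further replication factors (TICRR under its older symbol C15orf42), the authors' deposited tables listed 25 lower and 2 higher with sorafenib in Hep3B, 22 and 9 with both drugs there, and 25 and 2 with both drugs in Huh7. The same list gave 5 lower and 0 higher with GW3965 in Hep3B, 18 and 1 in the Huh7 group labelled GW3965, and 1 and 0 in the one labelled sorafenib, in the authors' deposited tables. With both drugs in Hep3B NASP, a histone chaperone (-1.60), and ATAD5, which unloads PCNA (-1.23), were lowest, and ORC5 (0.90) and ASF1A (0.46) highest, in the authors' deposited table. In Huh7 with both drugs ATAD5 (-1.22) and DNA2 (-1.10) were lowest, and POLD4, a small polymerase delta subunit (0.81), and RNASEH2B (0.46) highest, in the authors' deposited table. Of 14 further genes of nucleotide supply, 5 were lower and 1 higher with sorafenib in Hep3B, 9 and 1 with both drugs there, and 8 and 1 with both drugs in Huh7, in the authors' deposited tables. The 5 with sorafenib are near the share of expressed genes called lower. GW3965 in Hep3B called 0 of the 14, the Huh7 group labelled GW3965 3 lower, and the one labelled sorafenib 2 lower, in the authors' deposited tables. By the authors' edgeR test 5 of the 14 had an unadjusted p under 0.05 with GW3965 in Hep3B, 4 of them lower. The share over all genes in either direction was 15.7%.

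Of 22 genes of the E2F and S phase entry list, 17 fell and 1 rose with sorafenib in Hep3B, 16 and 2 with both drugs there, and 14 and 1 with both drugs in Huh7, in the authors' deposited tables. RB1, the gene of the retinoblastoma protein, stood at 1.58 to 1.71 CPM with DMSO in Hep3B and at 49.5 to 51.2 CPM in Huh7. The Hep3B level lay under the 2 CPM used as the minimum for expressed genes. These levels are set side by side without a test. Cyclin E1, which drives CDK2 at S phase entry, was the lowest with both drugs in Hep3B, CCNE1 at -2.84 followed by CCNE2 at -1.87 in the authors' deposited table, and E2F5 (0.67) and RBL1 (0.45) were highest. In Huh7 with both drugs E2F2 (-2.07) and E2F8 (-1.93) were lowest and E2F6 (0.31) was highest in the authors' deposited table. The marked E2F6 transcript is a non-coding variant, and other E2F6 transcripts were not examined. The remaining counts for this list were 4 lower and 0 higher with GW3965 in Hep3B, 13 and 0 in the Huh7 group labelled GW3965, and 1 and 1 in the one labelled sorafenib, in the authors' deposited tables. The 12 S phase checkpoint genes were the fourth list. With both drugs in Hep3B 1 fell and 7 rose, while more fell than rose in the other tables with calls: with sorafenib in Hep3B 4 fell and 1 rose, and with both drugs in Huh7 4 fell and 2 rose, in the authors' deposited tables. Both counts of 4 are near the share of expressed genes called lower. WEE1, the kinase that restrains CDK1 and CDK2, rose with both drugs by 0.65 in Hep3B and 1.10 in Huh7, and RAD17, which loads the checkpoint clamp, by 0.59 and 0.48, in the authors' deposited tables. ATR, the kinase that answers stalled forks, fell with both drugs in both lines (-0.48 and -0.48) in the authors' deposited tables. The list gave 1 lower with GW3965 in Hep3B, 5 lower and 1 higher in the Huh7 group labelled GW3965, and 0 by edgeR in the one labelled sorafenib, where 1 had an unadjusted p under 0.05, in the authors' deposited tables. The share of all genes with such a p in the last group was 9.09%.

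Replication genes with and without E2F letters in their 300 promoter bases both had medians below 0. With both drugs in Hep3B the median was -1.09 over the 21 genes with the letters and -0.72 over the 21 without, and in Huh7 -0.99 and -0.58, given as a description with no test. With sorafenib in Hep3B the medians were -0.88 and -0.57, and in the Huh7 group labelled GW3965 -0.42 and -0.31. They were close with GW3965 in Hep3B (-0.10 and -0.10), and the order turned in the Huh7 group labelled sorafenib (-0.06 with and -0.09 without). The ranges overlapped throughout: with both drugs in Hep3B they ran from -2.81 (UHRF1) to 0.49 (CDT1) with the letters and from -2.63 (RRM2) to 0.64 (RFC4) without. For 17 of the genes, 22 other transcripts differed from the marked one by -0.07 to 0.22 on the log2 scale over the 6 tables. The largest difference was for RFC3 with both drugs in Hep3B, at -0.40 beside -0.62 for the marked transcript. The other 31 genes had 1 transcript. Transcripts of a gene can share reads, which was not examined, so close values do not test the choice of transcript. Transcript length and GC content were known for 45 of the 48. Their median length of 3157 bases and GC content of 48.5% lay near those of the expressed genes with a known length. Across those expressed genes, the rank correlation of the fold change with GC content was 0.39 in the Huh7 table labelled sorafenib. That with length was 0.25 in the Hep3B GW3965 table. Both are descriptions over genes, which are not independent replicates.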

How the data were processed

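Hep3B and Huh7 cells gave 70 poly-A libraries in 8 groups, assigned from the labels. For each of 32321 transcripts the authors deposited, per the file headers, the log2 fold change of a drug group over DMSO, the mean log2 CPM, the p-value and the FDR. Per the submitters' processing notes, edgeR was used (no version) with builds hg19 and GRCh37. How reads were aligned, counted and normalized, and which edgeR test was run, was not given in the sources used here. The deposited p-values gave back the deposited FDR under Benjamini-Hochberg adjustment, with differences below 1e-09. All 48 genes had a nonzero count in all 70 libraries. Depth per library is unknown, so no interval that needs it is given.

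To check the sign, the DMSO level implied by each table was compared within a line: with the drug group as numerator it varied by an SD of at most 0.0157 (log2), and with DMSO as numerator by at least 0.351. Group means follow from the mean log2 CPM and the fold change. Standard errors of fold changes came from each fold change divided by its p-value's normal score. Where that p-value was above 0.5, the median of its expression bin (1 of 20) stood in, and this median was also the lower limit. For differences these errors were added in squares. The 2-sided normal p-values received Benjamini-Hochberg adjustment over genes at a mean of 2 CPM or more. The DMSO libraries that tables share enter this sum repeatedly. Python 3.11.15 with pandas 2.3.3, numpy 2.4.6, scipy 1.17.1 and matplotlib 3.10.9 was used.

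The 48 genes, their roles and the further lists were chosen with earlier results of these data known. All 48 could be named. Full statistics go to some of the lowest and highest genes of a comparison, to genes called against the common direction and to some others chosen after their values were seen. The lowest and highest genes of the Huh7 single-drug groups were not all given. Of each further list, the 2 lowest and 2 highest called genes with both drugs could be named, and RB1 was named for its level. Alternatives were other thresholds, rows adjusted over, expression and fold minimums, centring, transcripts, error floors and shared error.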

Additional observations from a re-analysis of the deposited data

Results flagged for a closer look

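The lines differed in their response, by a test of the difference itself, for 22 of the 48 genes with both drugs, 39 between the groups labelled sorafenib and 11 between the groups labelled GW3965. Among all genes tested, 26.3% were lower and 17.7% higher in Hep3B with both drugs, so the 22 are near the share of any genes. The shares were 18.2% and 17.7% for the groups labelled sorafenib and 10.1% and 14.7% for those labelled GW3965. The last 2 counts rest on Huh7 labels that go against drug marker genes. With both drugs, the log2 fold change in Hep3B minus that in Huh7 was -0.88 for POLE, -0.70 for PCNA, -0.68 for UHRF1, -0.53 for LIG1, -0.50 for TYMS and -0.48 for ASF1B. It was -0.41 for MCM3, -0.37 for RPA3, -0.29 for TIMELESS, -0.27 for RPA1 and -0.27 for MCM2. In the other direction it was 0.79 for ORC1, 0.76 for CDT1, 0.70 for CDC6, 0.64 for GMNN, 0.59 for PRIM1, 0.57 for RFC2 and 0.57 for MCM10. It was 0.51 for CDC45, 0.44 for RFC4, 0.40 for GINS1 and 0.32 for MCM6. Outlying libraries could not be looked for without values of single libraries.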

How the results depend on the processing

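Of 78 recomputed counts of replication genes, 72 stayed within 1.5 times the count reported. Some of these could not leave that range, so the 72 do not measure robustness. No replication gene fell under the 2 CPM minimum, a count near 48 cannot rise 1.5-fold, and a stricter threshold keeps a count of 0. The rule also took no account of direction. With an FDR under 0.01 the 12 genes called with GW3965 in Hep3B became 5, and the 24 of the Huh7 group labelled GW3965 became 12. Asking also for a change of 1.5-fold or more left 0 and 6 of these, since the changes there are small. For both drugs minus sorafenib in Hep3B, the 11 genes that differed became 22, with 15 lower and 7 higher, when the 2 fold changes were assumed to share the error of the DMSO libraries. For the Huh7 departure from the sum of the single-drug groups, the 19 became 12, with 11 lower and 1 higher, at an adjusted p under 0.01. Centring moved the split between lines with both drugs from 11 lower and 11 higher to 7 and 16. The cause was not tested for the shared error and for centring beyond what their construction sets. Leaving out single libraries was not run, for lack of values of single libraries. No paired analysis was possible because the tables hold only comparisons of groups and carry no replicate numbers. Precision rests on the authors' p-values alone, and limits set by depth could not be examined.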
